A study of Mus musculus with 2 samples.

Results

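The mitochondrial ribosomal protein genes were taken as every protein-coding gene of the mouse annotation whose symbol starts with Mrpl or Mrps and a digit. The rule gave 78 of 21938 protein-coding genes, 49 with an Mrpl symbol and 29 with an Mrps symbol, spread over 17 chromosomes. Open chromatin around them was measured by DNase-seq, which sequences the ends left where the enzyme DNase I cuts accessible DNA, in the spleens of 2 male B6CASTF1/J mice aged 2 months, F1 hybrids that the labels also call B6Cast F1. Both animals belong to 1 group with no treatment, and no comparison between conditions could be made. They are called animal 1 and animal 2 after their biological replicate numbers. The labels give them separate sample records but the same donor record, so differences between the libraries measure the spread between these samples, which may be technical.

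The mitochondrial ribosome translates the few messages of the mitochondrial genome, which encode core subunits of the respiratory chain and of ATP synthase. Its ribosomal RNAs are mitochondrial transcripts, but all of its proteins are encoded in the nucleus, made by cytosolic ribosomes and imported. Mrpl symbols stand for the large subunit, which forms peptide bonds, and Mrps symbols for the small subunit, which decodes the message. The symbols do not always follow the structure: the Mrps18a and Mrps30 products sit in the large subunit, and the Mrps36 product is now placed in the alpha-ketoglutarate dehydrogenase complex. Promoters of nuclear genes for mitochondrial proteins are known for sites of NRF1, of the ETS factor GABP (also called NRF2) and of YY1, and many are GC-rich promoters used in nearly all cells.

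The sequences below show the DNA of these promoters where the deposited footprints lie. A footprint is a short stretch inside open chromatin that DNase I cuts less than its flanks, as happens where a protein is bound. The first set holds every match to the ETS motif CCGGAAG that lay inside a footprint in both animals, with 10 bases on each side and the motif in capitals. These sets were chosen after the matches were seen. All sequences are of the mm10 build, are written 5′ to 3′ on the strand given and come from the reference genome, so they carry no CAST/EiJ variants.
Mrpl20, chr4:155803549-155803575, plus strand: tagaggcgccCCGGAAGacagtgctcg
Mrpl20, chr4:155803603-155803629, plus strand: gaccgttgacCCGGAAGcgcttctggc
Mrpl21, chr19:3283039-3283065, minus strand: acagtcccaaCCGGAAGcggaagcagc
Mrpl23, chr7:142533086-142533112, plus strand: agcgcggcctCCGGAAGcgagggggcg
Mrpl3, chr9:105053239-105053265, plus strand: gagaaacggaCCGGAAGtggcccggct
Mrpl43, chr19:45006438-45006464, minus strand: aaccccggaaCCGGAAGtcaccggtta
Mrpl43, chr19:45006482-45006508, minus strand: cgcggtgactCCGGAAGcaaaactctc
Mrps18c, chr5:100798593-100798619, minus strand: gcttcccgggCCGGAAGtcacgtgacc
Mrps21, chr3:95871480-95871506, plus strand: tctctgcggaCCGGAAGcggaagctac
Mrps23, chr11:88204393-88204419, minus strand: cgggctgttaCCGGAAGcggaagcggc
Mrps35, chr6:147042727-147042753, minus strand: gggggcgggaCCGGAAGtgtgtaacct
Mrps36, chr13:100744581-100744607, minus strand: cgtctgcgccCCGGAAGctgcccctgc

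The second set shows the NRF1 motif GCGCATGC in the same way for the 7 genes that had it in a footprint in both animals. Its core, GCATGC, is its own reverse complement, and where matches on the opposite strands overlapped the one on the plus strand is shown.
Mrpl10, chr11:97041438-97041465, minus strand: gggccgctatGCGCATGCgtggagctgg
Mrpl17, chr7:105811081-105811108, minus strand: ccgagttactGCGCATGCgtcctctgag
Mrpl22, chr11:58171621-58171648, plus strand: gcctcggactGCGCATGCgtatagtcag
Mrpl32, chr13:14613105-14613132, plus strand: ggcccctcttGCGCATGCgcaagggtca
Mrpl33, chr5:31613929-31613956, plus strand: accggaacccGCGCATGCcccggaagta
Mrpl39, chr16:84735350-84735377, plus strand: ccacgcggggGCGCATGCgcgcctctcc
Mrpl9, chr3:94443298-94443325, plus strand: aggcgcagctGCGCATGCgcggggtcct

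Longer stretches place such matches in a promoter. In each, the member with the highest promoter among those with the motif in a footprint of both animals is shown, with at most 30 bases of exon. The NRF1 stretch of Mrpl17 is chr7:105811070-105811158 on the minus strand, with the motif in capitals at 4 bp from a transcription start site (TSS).
Mrpl17 NRF1: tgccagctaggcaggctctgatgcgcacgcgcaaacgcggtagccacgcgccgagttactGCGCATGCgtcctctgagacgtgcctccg
The ETS stretch of Mrpl43 is chr19:45006413-45006514 on the minus strand, with the capitals at -9 bp. Positions with a minus sign are upstream of the nearest TSS. A further CCGGAAG at -53 bp is left in lower case.
Mrpl43 ETS: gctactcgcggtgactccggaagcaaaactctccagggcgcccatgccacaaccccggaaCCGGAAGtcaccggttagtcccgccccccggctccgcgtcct
The SP/KLF stretch of Mrpl17, chr7:105811148-105811240 on the minus strand, holds the GC box CCGCCC at -112 bp.
Mrpl17 SP/KLF: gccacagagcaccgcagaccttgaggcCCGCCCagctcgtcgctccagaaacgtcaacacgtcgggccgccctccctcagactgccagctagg
The YY1 stretch of Mrpl37 is chr4:107066823-107066852 on the minus strand, with AAGATGG at -17 bp, inside an annotated exon.
Mrpl37 YY1: cctgcacgggcaAAGATGGcggcgtccagg
The CREB stretch of Mrpl49 is chr19:6057891-6057920 on the minus strand, with TGACGTCA at -121 bp, also inside an annotated exon. That exon is not one of Mrpl49, since the stretch lies upstream of all starts of the gene.
Mrpl49 CREB: cctgctgcgtgTGACGTCActgcagcgcga

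All 78 genes were open at their promoter in both animals. A promoter was the 1 kb on either side of any annotated TSS, and a gene counted as open when a deposited peak overlapped it. Among all protein-coding genes 61.4% had such a peak in animal 1, 62.6% in animal 2 and 59.8% in both. The authors' peak height is given here for the strongest promoter peak of each gene. Its unit is not stated, and it was taken as a density of DNase cuts at the peak. Member heights ran from 1.40 to 20.8 in animal 1, with a median of 7.28, and from 1.55 to 20.8 in animal 2, with a median of 8.63. Genes open in both animals had medians of 5.82 and 7.0. As the mean of the animals, the member median was 7.77 against 6.42 for all open genes, and 44 of the 78 members lay above the latter. The difference lay in the low range. The lower quartile of the members was 4.04 in animal 1 and 5.01 in animal 2 against 2.39 and 2.91 for all open genes, while the upper quartiles were 10.3 and 11.8 against 10.1 and 11.9. Accessibility of a bulk tissue does not tell a promoter open in fewer cells from one less open in each cell.

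**Figure D1:**
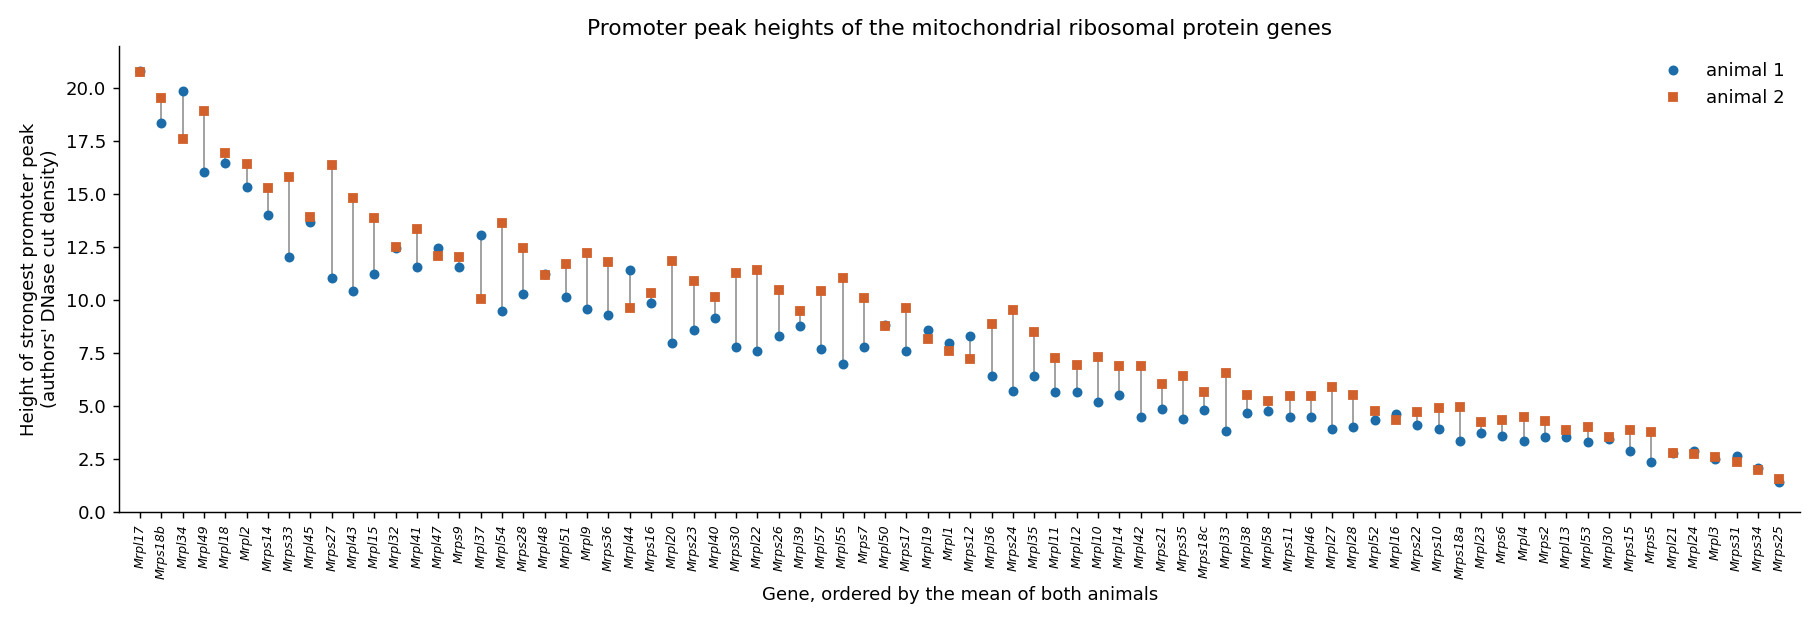
Height of the strongest promoter peak (authors' height, taken as a cut density, linear axis from 0) of each of the 78 genes. Animal 1 (circles) and animal 2 (squares) are joined by a grey line and ordered by the mean. Heights fall without a break from 20.8 at Mrpl17 to 1.40 and 1.55 at Mrps25, and all genes have a peak in both animals.

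Cytosolic ribosomal protein genes had a higher median than the mitochondrial ones. Of the 86 cytosolic ribosomal protein genes, 82 were open in both animals, and their medians were 9.81 and 10.6. Of these 82 genes, 67 lay above the median of all open genes. The Mrpl genes had a median of the mean height of 8.37 and the Mrps genes one of 7.60. No test was made of these differences, since genes are not replicates and the design has no second group.

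**Figure D2:**
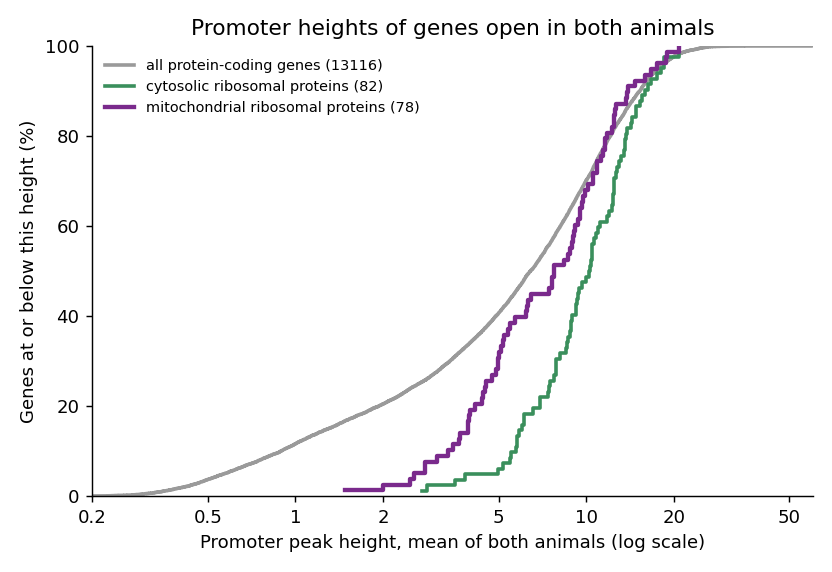
Share of genes (%) at or below each promoter height (mean of both animals, log axis) for all 13116 protein-coding genes open in both animals, 82 cytosolic and 78 mitochondrial ribosomal protein genes. The mitochondrial curve starts at 1.48, lies right of the curve of all genes up to about the middle and joins it in the upper range, with the cytosolic curve further right.

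Among the large subunit genes the highest promoter was that of Mrpl17, whose product has a bacterial counterpart in ribosomal protein L17. It stood at 20.8 in both animals, from a peak on chromosome 7 that ran from 105811001 to 105811380 in animal 1 across the TSS at 105811099. Mrpl34 on chromosome 8 had heights of 19.9 and 17.6, which average 18.7 ± 1.58 (SD, n = 2). Mrpl49 followed at 16.0 and 18.9, from the region that holds the CREB match shown above. Mrpl18, a 5S rRNA-binding protein in its bacterial form, had 16.5 and 16.9, and Mrpl2, whose bacterial counterpart lies at the peptidyl transferase centre, had 15.3 and 16.4. For Mrpl45, which anchors the tunnel exit to the inner membrane, the heights were 13.7 and 13.9, a difference of 0.02 on the log2 scale.

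Several of the 10 lowest members also belonged to the large subunit. Mrpl3, the counterpart of a protein needed early in assembly of the bacterial large subunit, stood at 2.51 and 2.58. Mrpl24, from the family that lies beside the tunnel exit, stood at 2.87 and 2.72. Mrpl21 had 2.794 and 2.797, the closest pair of values of any member. Mrpl30 stood at 3.43 and 3.55 and Mrpl53 at 3.29 and 4.02. These heights were low among all open genes too, with Mrpl3 at the 24.4 percentile and Mrpl21 at the 25.8.

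In the small subunit Mrps18b was highest, at 18.4 in animal 1 and 19.5 in animal 2. It is 1 of 3 mammalian genes related to bacterial S18, and the others were far lower, Mrps18c at 4.79 and 5.64 and Mrps18a at 3.37 and 4.94. The Mrps18b peak did not cover a TSS of the gene but lay at -452 and -462 bp, and the peak over its own start had 8.07 and 10.96. Mrps14, in the head of the small subunit, stood at 14.03 and 15.3, Mrps33 at 12.05 and 15.8 and Mrps27, a protein with pentatricopeptide repeats, at 11.0 and 16.4. The Mrps27 difference was the largest SD of any member, 13.7 ± 3.77 (SD, n = 2). Mrps33 and Mrps27 encode proteins that bacterial ribosomes lack.

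The lowest member of all was Mrps25, with 1.40 in animal 1 and 1.55 in animal 2, at the 16.7 percentile of all open genes. Its peak on chromosome 6 ran from 92183921 to 92184120 in animal 1, over the TSS at 92184033. Mrps34 had 2.06 and 1.96 and Mrps31 had 2.61 and 2.35, and both encode proteins found in mitochondrial but not in bacterial ribosomes. Mrps5, whose bacterial counterpart lines the entry path of the message, had 2.36 and 3.77, and Mrps15 had 2.86 and 3.84. Within 2 kb of a TSS Mrps34 reached 3.03 in animal 2 from another peak. The lowest members were thus not of 1 kind, with conserved and mitochondria-specific proteins among them.

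Every member peak was far above the lowest deposited peaks. The heights of each library were whole multiples of 1 step, and the members held 196 to 2909 steps in animal 1 and 229 to 3057 in animal 2. If a step is 1 DNase cut, which the labels do not state, these are the cuts behind each height. The best false discovery rate of a deposited cut-rate interval in a member's peak was at most 9.06e-11 in animal 1 and 2.93e-10 in animal 2. All 78 genes were also open in the shorter, stricter peak list of each animal, a share not given here for all genes.

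Most of the strongest peaks lay on the start site itself. For 71 members the peak covered an annotated TSS in both animals, against 68.4% of all genes open in both. The median distance between the peak's midpoint and the nearest TSS was 28.5 bp in animal 1 and 30.5 bp in animal 2, against 57 and 55 bp for all open genes. The midpoint lay upstream of the TSS for 58 members in animal 1 and 60 in animal 2, and for 74.2% of all open genes in each animal, so the members were close to the rest in this. Peaks were narrow, with median widths of 220 and 200 bp, the same as for all open genes. In 77 members the strongest peaks of the animals overlapped each other, with no share for all open genes to set beside this. Mrpl58, which encodes a peptidyl-tRNA hydrolase that frees stalled ribosomes, was the exception: its strongest peak had its midpoint at -1 bp in animal 1, with a height of 4.74, and at 199 bp in animal 2, with a height of 5.25. The peak over the Mrpl58 start was 4.74 and 4.65, so that promoter itself was nearly level.

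The 7 members without a strongest peak over a TSS in both animals differed in what their start held. Mrpl34, Mrpl47 and Mrpl52 had no peak over an annotated start in either animal. For Mrpl34 the midpoint of the strongest peak lay at -158 and -118 bp, for Mrpl52 at -118 and -108 bp and for Mrpl47 at 236 and 276 bp. Mrpl48 had a peak of only 0.738 and 2.51 over a start beside its strongest one of 11.2 and 11.2, which covered the start of its neighbour Rab6a. Mrpl54 had 6.14 and 5.90 over the start and 9.49 and 13.6 at a peak 263 and 293 bp downstream. The other two, Mrpl58 and Mrps18b, are described above.

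Member heights differed little between the animals. On the deposited scale 64 of 78 were higher in animal 2 and 14 in animal 1, against 85.4% of all open genes higher in animal 2. The median log2 ratio of animal 2 to animal 1 was 0.28 (SD 0.25 across members), and that of all open genes was 0.27 (SD 0.29). The whole peak list was shifted by 0.24 on the log2 scale between the libraries. With heights divided by each library's median peak, the member ratio was 0.03 and that of all open genes was 0.02, with 41 members higher in animal 2 and 37 in animal 1. Of all open genes 53.7% were higher in animal 2 after scaling. The lean towards animal 2 was thus mostly lost on scaling, for all open genes as for the members. No member differed by more than 2-fold on the deposited scale, against 0.801% of all open genes. Pearson's r of the log2 heights across the 78 genes was 0.957, given as a description of 1 pair of libraries, and across all open genes r was 0.983.

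**Figure D3:**
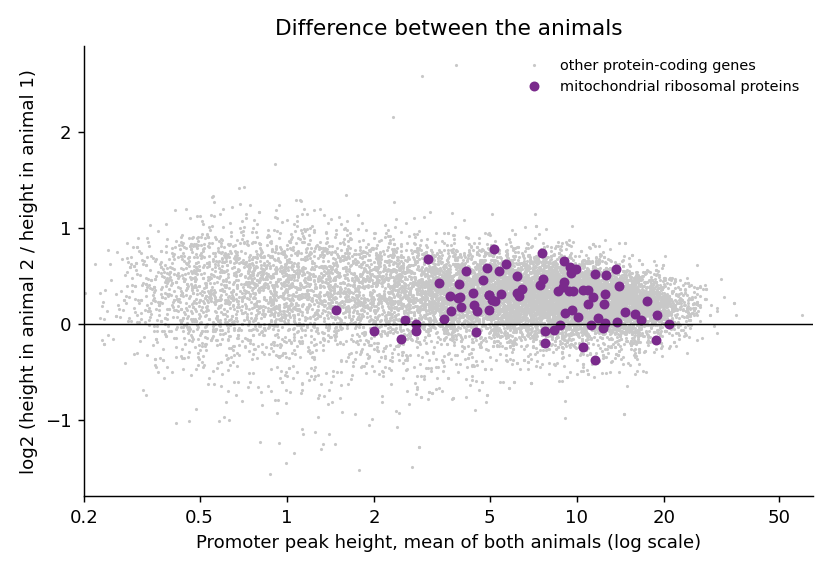
Log2 ratio of promoter height in animal 2 to animal 1 against the mean height (log axis) for the 78 members (purple) and all other protein-coding genes open in both animals (grey). The members lie between -0.38 and 0.78, inside the cloud of all genes, and spread around 0.28.

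The largest ratio in favour of animal 2 was that of Mrpl33, at 3.81 and 6.56, a log2 ratio of 0.78. Mrps24 had 5.69 and 9.51 (ratio 0.74), and Mrps5 the ratio 0.68. Both Mrpl33 and Mrps24 took their height from an internal start, and with the most 5' TSS alone Mrpl33 had 2.24 and 2.61 and Mrps24 no peak. Mrpl55, with 6.99 and 11.0, had a ratio of 0.66, and Mrpl42, with 4.49 and 6.90, one of 0.62. In the other direction Mrpl37 stood at 13.1 in animal 1 and 10.05 in animal 2, a ratio of -0.38. Mrpl44, an RNase III-fold protein of the large subunit, had 11.4 and 9.62 (ratio -0.25). Mrps12, the counterpart of the bacterial protein that helps to read the codon, had 8.30 and 7.23 (ratio -0.20), and Mrpl34 and Mrps31 had ratios of -0.17 and -0.15. With 1 library per animal none of these differences can be tested.

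Footprints were found in the strongest promoter peak of all 78 members in both animals, against 96.4% of all genes open in both. The median was 5 footprints per peak in animal 1 and 4 in animal 2, and 4 and 4 for all open genes. They took 37.1% of the bases of the member peaks in animal 1 and 38.5% in animal 2, against 30.8% and 33.3% for all open genes. The 78 peaks held 381 and 347 footprints, counting those of a shared peak for each gene. Of these, 84.5% in animal 1 and 82.7% in animal 2 overlapped a footprint of the other animal. Their median width was 15 and 16 bp. Upstream of the nearest TSS lay 63.3% and 65.1%, with a median position of -20 bp in both animals, and 46.2% and 49.3% lay within the 100 bp upstream of it. Only footprints inside the strongest peaks were counted, and the midpoints of these peaks had median positions of -18.5 and -17.5 bp. The footprint positions were thus partly set by the search, and those for all open genes are not given here.

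**Figure D4:**
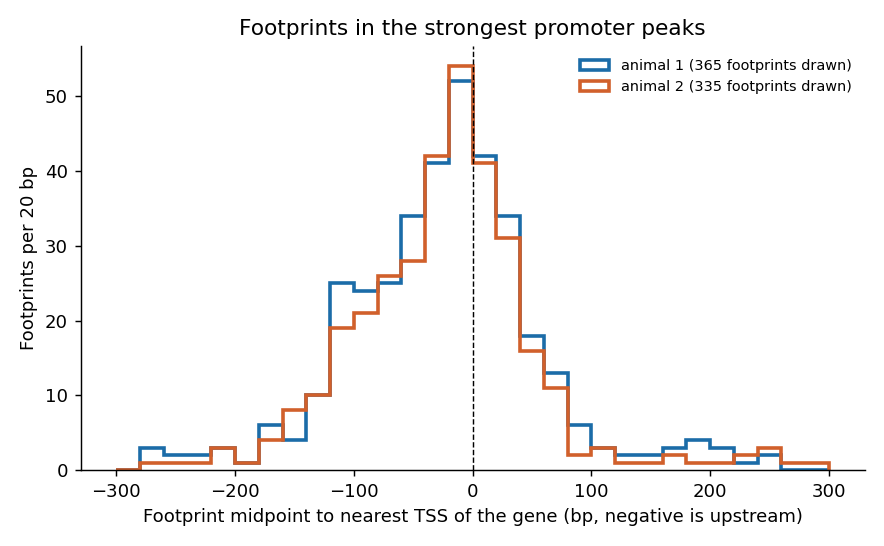
Number of footprints per 20 bp (y axis) by the distance of their midpoint from the nearest TSS of the member gene (x axis, bp, negative is upstream; a few footprints beyond the axis are not drawn) for animal 1 (blue) and animal 2 (orange). Both animals peak just upstream of the start, around the median of -20 bp. Only footprints inside the strongest promoter peaks were counted, so their positions were partly set by the search.

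By the mean of the animals Mrpl48 had the most footprints, 10 in each animal, all downstream of its nearest start. Their peak covered the start of Rab6a, a gene of Golgi transport, and its midpoint lay 21 bp from that start and 207 bp from the nearest start of Mrpl48, so height and footprints cannot be given to Mrpl48 alone. Mrpl30 had 11 in animal 1 and 6 in animal 2, in a peak that was among the lowest by height. Mrps14 had 8 in each animal, and Mrpl18, Mrpl28, Mrpl38 and Mrps18b had 7 in each. The footprints of Mrps14 ran in animal 1 from -267 bp to -20 bp. A low peak could thus hold many footprints and a high peak few, as Mrps33 had only 2 in each animal at heights of 12.05 and 15.8. These peaks also differed in width, with 120 and 140 bp for Mrps33 against 480 and 320 bp for Mrpl30.

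Motif letters differed between the member peaks and those of all genes. Each motif was searched on both strands of the strongest promoter peak. The ETS motif CCGGAAG was found in 30 members in animal 1 (38.5%) and 28 in animal 2 (35.9%), against 18.7% and 18.1% of all genes open in both. The YY1 motif AAGATGG was found in 13 members in each animal (16.7%), against 6.43% and 5.99%. The NRF1 motif GCGCATGC was found in 7 members in each animal (8.97%), against 5.72% and 5.73%. At least 1 of these 3 motifs was present in both animals in 41 members (52.6%), against 25.8% of all open genes. Cytosolic ribosomal protein genes had the ETS motif in 35.4% of their peaks in both animals and the YY1 motif in 13.4% and 11.0%. The higher share of ETS and YY1 letters was thus found in both sets of ribosomal protein genes, and it was not tested.

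**Figure D5:**
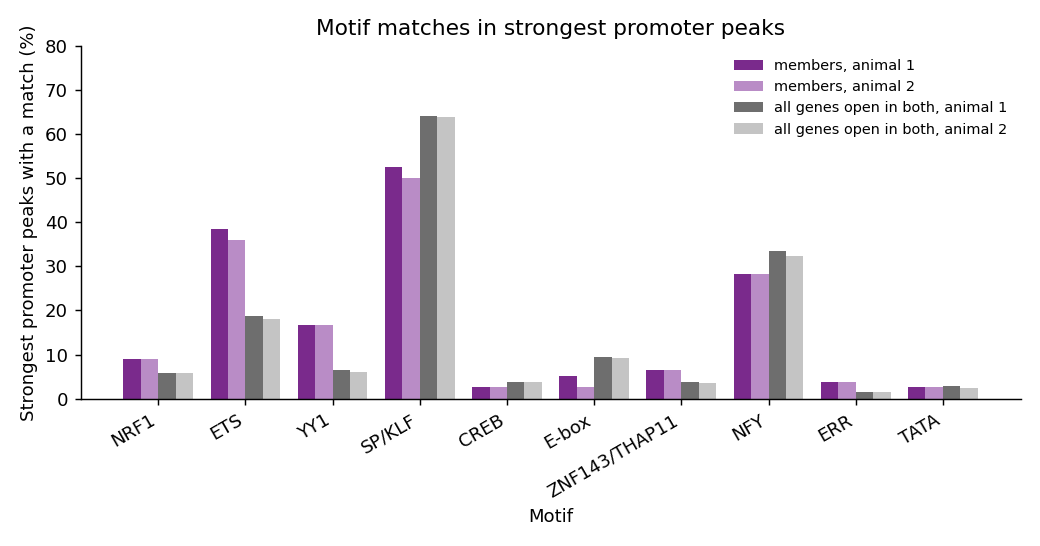
Share (%) of strongest promoter peaks that hold each motif, for the 78 members (purple shades, animals 1 and 2) and all genes open in both animals (grey shades). The member bars are above the grey bars for ETS (38.5 and 35.9% against 18.7 and 18.1%) and YY1 (16.7% against 6.43 and 5.99%) and below them for SP/KLF (52.6 and 50% against 64.1 and 63.9%).

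The remaining motifs had no common direction. The GC box CCGCCC was in 41 and 39 members (52.6% and 50%) against 64.1% and 63.9% of all open genes. CCAAT, bound by NFY, was in 22 in each animal (28.2%) against 33.5% and 32.2%, and TGACGTCA, bound by CREB, was in 2 (Mrpl16 and Mrpl49, 2.56%) against 3.85% and 3.83%. The E-box CACGTG was in 4 and 2 members (5.13% and 2.56%) against 9.44% and 9.25%. ACTACAA, part of the ZNF143/THAP11 motif, was in 5 in each animal (6.41%) against 3.76% and 3.46%, and AAGGTCA, bound by oestrogen-related receptors, was in 3 (3.85%) against 1.59% and 1.52%. TATAAA was in 2 (Mrpl16 and Mrps18b, 2.56%) against 2.98% and 2.33%, and only in Mrpl16 did it lie near the position of a TATA box, at -41 bp. Mrpl11, Mrpl44, Mrpl47, Mrps2 and Mrps25 held none of the 10 motifs in either animal. How many of all open genes held none is not given here. No motif contains another, but matches to GCGCATGC on the opposite strands can overlap.

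The window around the start gave the same order for ETS. In the 300 bases around the most 5' TSS, regardless of peaks, CCGGAAG was in 34.6% of the members, 16.4% of the open genes and 10.8% of all protein-coding genes. The 31 ETS matches present in both animals' peaks all lay between -67 and 41 bp of a TSS, with a median of -5 bp. In 18 of them the motif as written was on the gene's own strand. The 14 YY1 matches had a median of 5 bp downstream, and 13 of them lay within 100 bp of a start. GC boxes lay further upstream, with a median of -32 bp over 66 matches and 54 of them upstream. These positions are of matches inside the strongest peaks, most of which covered a TSS. Nearness to a start was thus partly set by the search, and positions for all open genes are not given here.

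Of these 3 motifs, NRF1 matches lay in footprints most often. All 7 members with GCGCATGC had it in a footprint in both animals: Mrpl9, Mrpl10, Mrpl17, Mrpl22, Mrpl32, Mrpl33 and Mrpl39. Among all open genes with this motif in both animals, 78.3% had it in a footprint in both, so NRF1 letters lay in footprints at most genes. Of the members with CCGGAAG, 14 had it in a footprint in animal 1, 11 in animal 2 and 10 in both, out of 27 with the match in both. Among all open genes with the match in both that share was 28.7%. The 10 were Mrpl3, Mrpl20, Mrpl21, Mrpl23, Mrpl43, Mrps18c, Mrps21, Mrps23, Mrps35 and Mrps36. Their heights ranged widely, from Mrpl3 and Mrpl21 among the lowest members to Mrpl43 at 10.4 and 14.8. AAGATGG was in a footprint in both animals only in Mrpl37 and Mrps18a, 2 of 13, against 15.5% of all open genes with the match. CCGCCC was in one in 23 of 38 members, against 62.0%. A match is a description of letters, and no factor's binding was measured.

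Many of the strongest peaks also lay near the start of another gene. In 34 members (43.6%) the strongest peak also lay within 1 kb of a TSS of another protein-coding gene in both animals, against 20.3% of all open genes. This held for 24 of 49 Mrpl genes and 10 of 29 Mrps genes, and for 19.5% of the cytosolic ribosomal protein genes. When the peak itself had to cover the partner's TSS, 25 members (32.1%) were left, against 13.6% of all open genes, a criterion chosen after seeing the data. Among the others were Mrpl40, with its midpoint 396 and 486 bp from the start of Hira, and Mrpl41, 872 and 892 bp from that of Pnpla7. The 34 members formed 34 pairs with partners, counting Mrpl46 with Mrps11 once and Mrps6 with both of its partners. In 24 pairs the genes pointed away from each other, in 8 they lay on opposite strands with overlapping starts, and in 2 they lay on the same strand. In 31 of the pairs the nearest starts lay within 200 bp, with a median of 52 bp. A height at such a promoter cannot be given to either gene alone.

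Peaks near a second gene's start were higher in the median. Members that shared their peak had a median mean height of 9.29 and the other 44 members one of 6.39. All open genes showed the same order, with 9.19 and 5.64. The median log2 ratio between the animals was 0.22 for the sharing members and 0.29 for the others.

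Several partners also encode mitochondrial proteins, and the share of such partners among all open genes is not given here. Mrpl46 of the large subunit and Mrps11 of the small subunit formed the only pair of members with a common promoter. Their nearest starts lie 30 bp apart on chromosome 7, and 1 peak of 4.46 in animal 1 and 5.49 in animal 2 covered both. Mrpl43 faced Twnk, the helicase of the mitochondrial genome, across 116 bp, with a peak of 10.4 and 14.8. Mrps12 faced Sars2, the mitochondrial seryl-tRNA synthetase, with 8.30 and 7.23. Mrpl47 and Mrpl36 lay beside Ndufb5 and Ndufs6, both of respiratory complex I, with 12.4 and 12.1 for the first and 6.404 and 8.87 for the second. The peak given for Mrpl47 covered the start of Ndufb5 but no start of Mrpl47. Mrps27 shared its 11.0 and 16.4 with Ptcd2, another pentatricopeptide repeat gene.

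Other partners belong to other processes. The highest was the peak of Mrps18b with Ppp1r10, a regulator of protein phosphatase 1, whose start lay 69 bp from the peak's midpoint in animal 2 while the start of Mrps18b lay 462 bp away. Mrpl49 faced Fau, which encodes a protein of the cytosolic small ribosomal subunit fused to a ubiquitin-like domain, across 59 bp. Mrpl18 had its start 16 bp from that of Tcp1, a subunit of the cytosolic chaperonin. Mrpl2 shared its peak with Klc4, a kinesin light chain gene, across 207 bp. Mrpl32 faced Psma2, a subunit of the proteasome core, across 75 bp, with heights of 12.4 and 12.5. Mrpl37 faced Cyb5rl across 120 bp, and Mrpl41 shared its peak of 11.6 and 13.3 with Pnpla7, whose start was the most distant of the partners found in both animals, 935 bp away. Low peaks were shared too, as those of Mrps34 with Eme2, Mrpl21 with Ighmbp2, Mrps5 with Zfp661 and Mrpl30 with Mitd1.

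Peaks further from the starts were counted between 1 and 50 kb of the most 5' TSS. Members had a median of 6 such peaks in animal 1 and 5.5 in animal 2, against 5 and 4 for all protein-coding genes, open or not. Of the 593 and 594 peaks counted, 53.8% and 56.2% lay within 1 kb of a TSS of some gene, and 80.3% in each animal overlapped a peak of the other. Leaving out peaks near any TSS, the median of the mean of the animals was 3.0 in place of 6.25, with 2.5 for all genes. Since only the most 5' TSS set the window, peaks at a member's own internal starts were counted for 11 members, 18 peaks in animal 1 and 15 in animal 2. The strongest promoter peaks of Mrpl33, Mrpl35 and Mrps24 were among them. Without these peaks, a choice made after seeing the data, the median was 5.5, with 4.0 for all genes. A distal peak need not act on the member it was counted for.

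By count Mrpl21 on chromosome 19 came first, with 25 in animal 1 and 26 in animal 2, but 15 and 17 of these had a height under 0.3. Without such low peaks it had 10 and 9, and Mrpl54, which had none under 0.3, came first with 20 and 22. The strongest distal peak of Mrpl21, 42610 bp downstream and away from any TSS, had a height of 9.10 and 11.7. This was above the promoter of Mrpl21 at 2.794 and 2.797. Mrps18b had 21 and 17, Mrpl4 20 and 16 and Mrpl20 17 and 19. For Mrpl4 a peak 28213 bp downstream and away from any TSS reached 8.04 and 10.6, above its promoter of 3.36 and 4.47. Such a stronger peak away from TSS was found for 7 members in each animal, and the share among all genes is not given here. At the other end Mrpl37 had no peak in either animal, although its promoter stood at 13.1 and 10.05. Mrps9 had 0 and 1, Mrps33 2 and 0, Mrpl50 1 and 2 and Mrps30 2 and 1. Mrpl3 was level with the latter pair at 1 and 2. Few distal peaks went with high and low promoters alike, as Mrps9 stood at 11.6 and 12.04 and Mrpl3 at 2.51 and 2.58.

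The genes that serve the same machine were all open as well. They were read from lists of other mitoribosome proteins (5 genes), mitochondrial translation factors (12), aminoacyl-tRNA synthetases (17), assembly and rRNA modification factors (22) and mitochondrial transcription and RNA stability factors (7), and each gene matched by symbol was open in both animals (Mtres1 was not matched). Translation factors had medians of 6.07 and 6.81, synthetases 8.30 and 9.27 and assembly factors 6.28 and 8.10. All 17 synthetases lay above the median of all open genes, against 44 of the 78 members. In the other lists 13 of 22 assembly factors and 6 of 12 translation factors lay above it. So did 5 of 7 transcription and RNA stability factors and 1 of 5 other mitoribosome proteins. Tfam, which packages the mitochondrial genome and is needed for its transcription, stood at 14.04 and 18.01, and Tufm, the elongation factor that brings tRNA to the ribosome, at 10.4 and 12.1. Mtif2, the initiation factor, was low at 2.09 and 1.79, as was Mtrf1 at 1.83 and 2.04. Dap3, a small subunit protein with no Mrps symbol, stood at 4.56 and 5.62. It had the lowest mean of the 5 other mitoribosome proteins, and Aurkaip1 had the highest, with 11.0 and 13.2. Of the synthetase genes, 35.3% shared their peak with another coding gene, and of the translation factors 16.7%. The share was 36.4% for assembly factors, 40% for other mitoribosome proteins and 28.6% for transcription and RNA stability factors, against 20.3% of all open genes.

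The tissue label was checked against marker genes. All 11 spleen markers, of B cells, T cells and myeloid cells, were open at the promoter in both animals, against 59.8% of all protein-coding genes. Of 6 markers of liver, muscle and neurons only Actn2 had a promoter peak, at 1.56 and 2.44. The T cell markers Cd3e (0.838 and 0.930) and Cd28 (1.48 and 1.34) were lower than Actn2, and the other spleen markers were higher. The 5 Mrpl and Mrps pseudogenes with a "-ps" symbol, all processed copies, had no promoter peak in either animal. The share of all processed pseudogenes with such a peak is not given here.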

How the data were processed

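DNase-seq libraries of 2 spleens were read as deposited. The authors aligned each library to mm10 and derived peaks, footprints and cut-rate intervals per library, not pooled, per the deposited file listings. Aligner, callers and thresholds: not given in the sources used here. In the authors' files the peak height is a signal whose unit is not stated, and it was taken as a density of cuts. Every height was a whole multiple (within 0.02 of a step) of 0.00716 in animal 1 and 0.00679 in animal 2. Depth can thus be read only if a step is 1 cut. The deposited footprint files hold positions and a constant of 0.01 in place of a p-value, and the deposited cut-rate files hold a false discovery rate (q-value). The files do not separate the parental alleles of the hybrid.

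Genes and TSS were from GENCODE M21, and sequences from GRCm38.p6, which has the mm10 sequence. Promoters were 1 kb on each side of any TSS, using the longer peak list, with overlaps of at least 1 bp, and a gene's strongest peak gave its height. A footprint belonged to the peak that held its midpoint. Intervals, motifs and medians were computed with Python 3.11.15, numpy 2.4.6, pandas 2.3.3 and pysam 0.24.0, checked on simulated data. No test was possible in 1 group of 2 animals. Members were named by rank of height, ratio, footprints, distal peaks and shared peaks; the members and lists were chosen with earlier results of these data known. Other lists, windows, scalings and each animal alone were tried.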

Additional observations from a re-analysis of the deposited data

How the results depend on the processing

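With the shorter peak list, promoters of 500 bp or 2 kb, the higher 50% of the peaks and each animal alone, all 78 members were open and had a footprint. With the most 5' TSS only 76 were, since Mrpl35 and Mrps24 had no peak there, and the median height was 8.07. The median height was 7.28 to 8.63 with 1 animal left out. Sharing members numbered 32 within 500 bp, 37 within 2 kb, 40 with a neighbour of any gene type and 25, a criterion chosen after seeing the data, with the partner's TSS in the peak. For the last, the share of all open genes was 13.6%. Under the other settings the shares of all genes that were open, had a footprint or shared a peak are not given here. Whether members still exceeded all genes there was not tested. The median number of distal peaks was 6.25, 3.0 when peaks within 1 kb of any TSS were left out and 2.5 at most 20 kb away (all genes 2.5 and 1.5). After seeing the data, it was 5.5 without peaks at the gene's own starts and 6.0 without peaks under 0.3. Of 41 named genes, Mrps24 lost its peak (most 5' TSS), and Mrps34 (within 2 kb) and Mrpl33 (most 5' TSS) moved by more than their SD under the other lists or windows. Matches to the E-box (4 in animal 1, 2 in animal 2) and TATAAA (5 in the 300-base window, 2 in the peaks) also depended on the stretch searched. No paired analysis was possible because there is 1 group and no test. The cut totals are not given, so counting error was not modelled.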

Other observations

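Mrpl19 on chromosome 6, chosen after its values were seen, had very unequal numbers of distal peaks, 4 in animal 1 and 22 in animal 2, while its promoter stood at 8.57 and 8.17. All 4 peaks of animal 1 were found in animal 2. Of the 22 peaks of animal 2, 17 had a height under 0.3, and their median was 0.146 against 1.14 in animal 1. Mrpl21 on chromosome 19 also had many low distal peaks, 15 of 25 in animal 1 and 17 of 26 in animal 2 under 0.3, and 9 in each animal overlapped a peak of the other.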
